A study of Mus musculus with 8 samples.

Results

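The tissue inhibitors of metalloproteinases (TIMPs) and RECK form the set described here, 5 genes chosen by symbol (Timp1, Timp2, Timp3, Timp4 and Reck) among 22180 genes with a named probe set. Each of the 5 had a single probe set on the array. Levels were measured in primary hepatic stellate cells of BALB/c mice, an inbred strain, on 8 Affymetrix arrays in 4 groups of 2. Cultured cells had spent 10 days in culture. The 4-week and 2-week CCl4 cells were taken without seeding from mice made fibrotic with carbon tetrachloride (CCl4), a hepatotoxin, for those times. Quiescent cells, labelled as 0 hours, were not seeded either. A protocol text attached to every sample names valproic acid after seeding, while no group label names it, so its use in the cultured cells remains unknown here. The labels give no age or sex and do not tie the arrays of a group to separate mice or dishes. The p-values therefore reflect the spread between arrays, part of which may be technical.

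Hepatic stellate cells are liver pericytes that store vitamin A and become matrix-producing myofibroblasts after injury or on plastic. Metalloproteinases degrade collagen and other matrix proteins, and the secreted TIMPs block them by filling the catalytic site. Timp1 is the inhibitor best known from liver fibrosis, in which activated stellate cells are a main source. Timp2 both inhibits the gelatinase encoded by Mmp2 and helps the membrane protease encoded by Mmp14 to activate it, Timp3 stays bound to the matrix and also blocks sheddases such as the product of Adam17, and Timp4 is known mainly from heart, brain and fat. Reck encodes a membrane-anchored inhibitor of the Mmp2, Mmp9 and Mmp14 products that also serves Wnt7 signalling.

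Promoter windows are shown for the members whose levels moved most, Timp1 and Timp3 upward and Reck downward. The windows, from RefSeq (GRCm38.p6), run 5′ to 3′ from 250 bases before the annotated start to 50 bases after it. All 5 members matched the RefSeq table by symbol. Capitals mark matches to any of 4 motifs searched on both strands, TGANTCA (AP-1), TGAGTAA (a variant of it), GGAATG (TEAD, the partner of YAP) and GGGCGG (Sp1), and no matches overlapped.
Timp1, chrX:20869916-20870215, plus strand: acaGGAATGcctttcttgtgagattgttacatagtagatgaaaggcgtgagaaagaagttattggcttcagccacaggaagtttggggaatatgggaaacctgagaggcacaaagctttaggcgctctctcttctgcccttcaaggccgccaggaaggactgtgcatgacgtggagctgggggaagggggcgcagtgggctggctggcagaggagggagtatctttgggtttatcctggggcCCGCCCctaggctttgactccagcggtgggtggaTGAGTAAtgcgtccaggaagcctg
Timp3, chr10:86300162-86300461, plus strand: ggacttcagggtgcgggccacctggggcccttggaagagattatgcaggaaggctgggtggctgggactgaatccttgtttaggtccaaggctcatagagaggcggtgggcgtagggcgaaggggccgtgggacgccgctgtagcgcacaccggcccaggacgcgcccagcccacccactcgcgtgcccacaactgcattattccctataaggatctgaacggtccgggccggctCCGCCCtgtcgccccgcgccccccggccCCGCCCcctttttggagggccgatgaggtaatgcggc
Reck, chr4:43875280-43875579, plus strand: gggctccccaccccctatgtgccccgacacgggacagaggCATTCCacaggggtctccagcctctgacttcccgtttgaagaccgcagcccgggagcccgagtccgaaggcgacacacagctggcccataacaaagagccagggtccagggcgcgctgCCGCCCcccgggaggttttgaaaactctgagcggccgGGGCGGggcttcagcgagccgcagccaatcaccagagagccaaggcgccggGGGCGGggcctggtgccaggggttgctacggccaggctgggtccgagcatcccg
The Timp1 window held TGAGTAA at positions 27 to 33 after the start, a heptamer found in 2.68% of the 32851 windows of this length. GGAATG stood in the Timp1 window (positions -247 to -242) and, on the other strand, in the Reck window (positions -210 to -205), against 14.7% of all windows. GGGCGG was present in 4 of the 5 members, all but Timp4, against 35.7% of all windows. TGANTCA was in 0 of the 5 and in 7.81% of all windows. These are letter matches and say nothing of binding.

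Of 16 stellate markers, 0 rose and 13 fell in culture, 1 rose and 8 fell at 4 weeks, and 1 rose and 7 fell at 2 weeks, with median changes of -3.19, -0.59 and -0.70. The pericyte filament gene Des read 9.96 and 9.87 in culture, against 9.67 and 9.83 in quiescent cells, and passed in no comparison with quiescent cells. Median stellate markers (16 genes, among them Des, Lrat and Hand2) stood at 7.31 and 6.63 log2 units in culture, at 10.49 and 10.41 after 4 weeks and 10.19 and 10.27 after 2 weeks of CCl4, and at 10.60 and 10.84 in quiescent cells. Median myofibroblast markers (8 genes, among them Acta2, Lox and Tnc) stood at 10.79 to 11.30 on the 6 arrays of cultured and CCl4 cells and at 7.05 and 7.69 in quiescent cells. Transcripts of other liver cells were present too and differed between the groups. In bulk RNA, fewer cells of a type and less RNA per cell cannot be told apart. The quiescent replicates lay furthest apart, with 565 genes over 2-fold different between them, against 158 in culture, 56 at 4 weeks and 117 at 2 weeks.

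**Figure D1:**
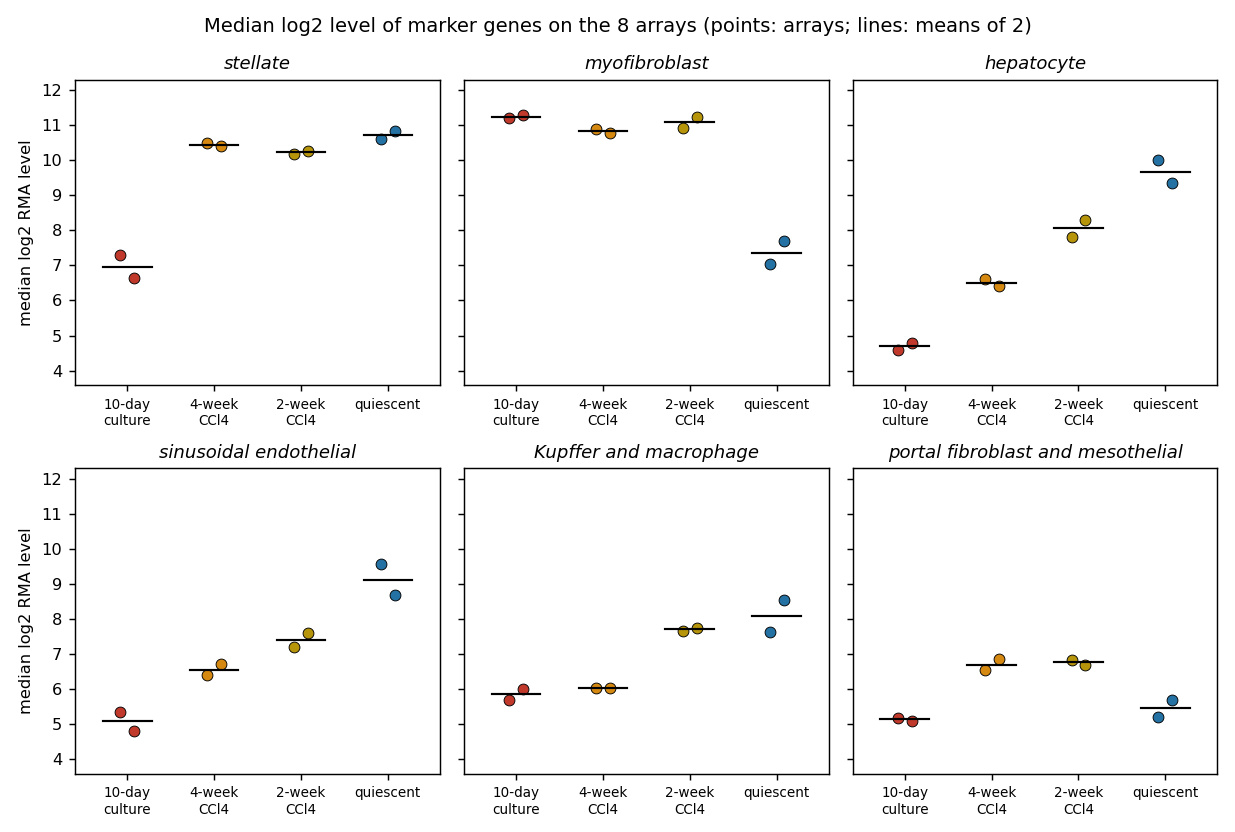
Median log2 RMA level (y axis) of 6 marker lists on each array, with 10-day culture, 4-week CCl4, 2-week CCl4 and quiescent cells along the x axis; points are arrays and lines are means of 2. Hepatocyte medians stood at 4.59 and 4.78 in culture, against 10.00 and 9.34 in quiescent cells, and sinusoidal endothelial medians at 5.35 and 4.81 in culture, against 9.57 and 8.69 in quiescent cells.

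Timp1 was high in all activated cells and low in quiescent cells. On the log2 scale of the robust multi-array average (RMA), in which 1 unit is a doubling, it read 11.73 and 11.87 in culture, 11.90 and 11.88 at 4 weeks of CCl4, 11.89 and 11.44 at 2 weeks, and 8.56 and 7.71 in quiescent cells. The 6 activated arrays lay above both quiescent arrays with a gap of over 2 units, and overlapped among themselves. Changes are log2 fold changes ± standard error (SE) from limma, with p adjusted by the Benjamini-Hochberg method over all genes. Timp1 rose 12.7-fold in culture (3.67 ± 0.26, adjusted p = 2.074e-05), 13.5-fold at 4 weeks (3.75 ± 0.26, adjusted p = 0.0001418) and 11.5-fold at 2 weeks (3.53 ± 0.26, adjusted p = 0.0002592). Few genes moved further after CCl4: 0.144% of all genes had a larger absolute change at 4 weeks and 0.0766% at 2 weeks, against 0.974% in culture. In culture against the mean of the CCl4 times the difference was 0.02 ± 0.23 (95% interval -0.49 to 0.54, adjusted p = 0.965), and between 4 and 2 weeks it was 0.22 ± 0.26 (-0.37 to 0.82, adjusted p = 0.902). The quiescent arrays set much of the error, and without replicate 1 or 2 of them the rise in culture was 4.09 or 3.24. Of 9 portal fibroblast and mesothelial markers, 2 rose and 3 fell in culture (Eln, Cd34 and Wt1), 3 rose and 0 fell at 4 weeks, and 4 rose and 0 fell at 2 weeks. The log2 of their summed signal stood at 10.44 to 10.66 in culture, 10.30 to 10.40 at 4 weeks, 10.44 to 10.62 at 2 weeks and 9.17 to 9.32 in quiescent cells, with Fbln2 of this list at a mean of 10.07 in culture, against 5.62 in quiescent cells. The part of these cells in the Timp1 rise was not tested.

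**Figure D2:**
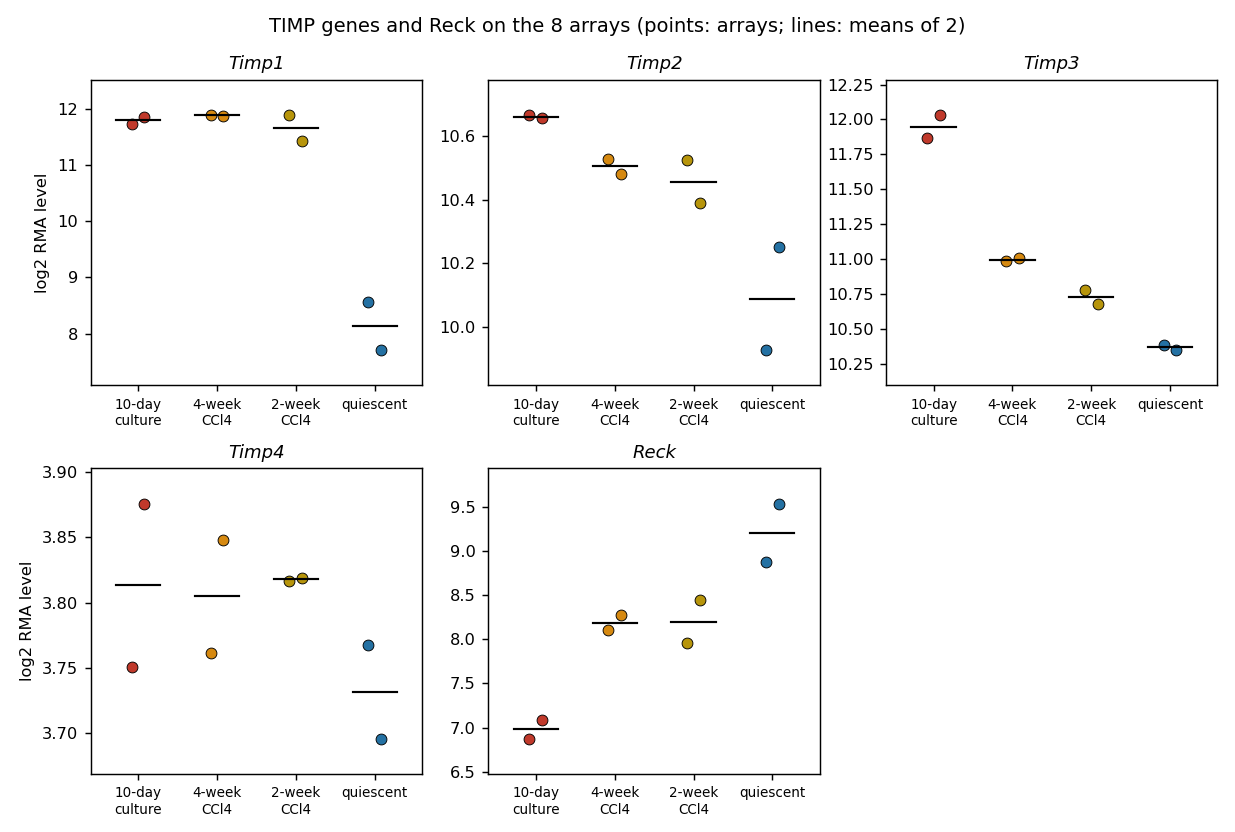
Log2 RMA level (y axis, scaled per gene) of Timp1, Timp2, Timp3, Timp4 and Reck in 10-day culture, 4-week CCl4, 2-week CCl4 and quiescent cells (x axis); points are arrays and lines are means of 2. Timp1 separates the 6 activated arrays from the 2 quiescent ones, Timp3 and Reck also set culture apart from CCl4, and Timp4 varies by less than 0.2 units in all.

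Timp3 rose most in culture and less after CCl4. Its levels were 11.87 and 12.03 in culture, 10.984 and 11.004 at 4 weeks, 10.78 and 10.68 at 2 weeks, and 10.38 and 10.35 in quiescent cells. The groups stood in that order with no overlap between any of them. Timp3 rose by 1.58 ± 0.13 in culture (adjusted p = 5.363e-05). The smaller 4-week rise of 0.63 ± 0.13 also passed (adjusted p = 0.02266), while 2 weeks gave 0.36 ± 0.13 (adjusted p = 0.203). Culture was above CCl4 by 1.09 ± 0.12 (adjusted p = 0.0002255), or 2.13-fold, so the change in culture was larger than that in the fibrotic liver. The step between 4 and 2 weeks, 0.27 ± 0.13, did not pass (adjusted p = 0.699). Leaving out 1 array at a time ended the 4-week call in 4 of 8 fits, those without either quiescent or either 4-week array (adjusted p 0.06177 to 0.1249). It was also lost when all 41345 probe sets were tested (adjusted p = 0.05778) or only the quiescent and 4-week arrays were fitted (adjusted p = 0.05969).

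Timp2 varied little. It read 10.67 and 10.66 in culture, 10.53 and 10.48 at 4 weeks, 10.52 and 10.39 at 2 weeks, and 9.93 and 10.25 in quiescent cells, so that all activated arrays lay above the quiescent ones by at least 0.1 units. Culture gave a rise of 0.57 ± 0.15 (adjusted p = 0.02348), a change exceeded in size by 23.9% of all genes. The CCl4 values, 0.42 ± 0.15 at 4 weeks (adjusted p = 0.149) and 0.37 ± 0.15 at 2 weeks (adjusted p = 0.258), did not pass, and culture did not differ detectably from CCl4 (0.18 ± 0.13, 95% interval -0.12 to 0.48, adjusted p = 0.419). Leaving out quiescent replicate 1 ended the culture call (0.41, adjusted p = 0.1343), as did fits without culture replicate 1 or 2 (adjusted p 0.09774 and 0.09653), with all probe sets tested (adjusted p = 0.0539) and with only the arrays of the groups compared (adjusted p = 0.06923).

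Timp4 gave no signal above background. Its 8 values lay between 3.70 and 3.88 log2 units, below 4.75, the 95th percentile of 1394 olfactory and vomeronasal receptor genes, which serve as a guide to background. No comparison passed (adjusted p 0.754 to 0.994), and at that signal a change in the transcript could have gone undetected.

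Reck was the member that went down. It read 6.88 and 7.08 in culture, 8.10 and 8.27 at 4 weeks, 7.95 and 8.44 at 2 weeks, and 8.87 and 9.54 in quiescent cells. Culture lay lowest, the 4 CCl4 arrays lay between and overlapped with each other, and the quiescent arrays lay highest. Reck fell by 2.22 ± 0.24 in culture (adjusted p = 0.0002266), to 0.214 of its quiescent level, and by 1.02 ± 0.24 at 4 weeks (adjusted p = 0.03452). At 2 weeks the difference was almost as large, -1.01 ± 0.24, just outside the threshold (adjusted p = 0.05207). Culture was also below CCl4 (-1.21 ± 0.21, adjusted p = 0.003309), and 4 against 2 weeks gave -0.01 ± 0.24 (95% interval -0.56 to 0.54). The quiescent arrays differed by more than the CCl4 arrays did, and the 4-week change was -0.68 without quiescent replicate 2 (adjusted p = 0.1164) and lost its call in 4 other such fits, those without either culture or either 4-week array (adjusted p 0.05595 to 0.2041). At 2 weeks the call was gained without quiescent replicate 1 (-1.34, adjusted p = 0.01795).

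Transcripts of stellate cells, hepatocytes and sinusoidal endothelial cells went the same way as Reck. Of 16 stellate markers, 13 fell and 0 rose in culture, 8 fell and 1 rose at 4 weeks, and 7 fell and 1 rose at 2 weeks. The log2 of the summed stellate level was 13.27 to 13.35 in culture and 14.85 on both 4-week arrays. It was 14.70 to 14.77 at 2 weeks and 15.24 to 15.30 in quiescent cells. In culture 12 of 12 sinusoidal endothelial and 12 of 12 hepatocyte markers fell, at 4 weeks 10 and 12 of them, and at 2 weeks 8 and 6. Macrophage markers (12 genes) also fell in culture (10, with 1 rise) and at 4 weeks (9, with 0 rises). At 2 weeks 1 of them fell and 2 rose. The log2 of the summed endothelial level was 8.55 to 9.02 in culture, 10.61 to 11.02 at 4 weeks, 11.33 to 11.66 at 2 weeks and 12.76 to 13.70 in quiescent cells. For hepatocytes it was 8.72 to 8.92 in culture, 11.36 to 11.65 at 4 weeks, 12.46 to 13.10 at 2 weeks and 13.71 to 14.61 in quiescent cells. Within the pairs of arrays, the one with more Reck had the higher endothelial sum at 4 and at 2 weeks and the lower one in culture and in quiescent cells. It had the higher hepatocyte sum in culture and at 2 weeks and the lower one at 4 weeks and in quiescent cells. Its stellate sum was the higher one at 2 weeks and in quiescent cells and the lower one in culture. At 4 weeks the stellate sums were nearly equal. An order of 2 arrays can fall either way by chance, so no conclusion is drawn from it. The part of any of these cell types in the Reck values was not tested.

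Over the set, 4 of 5 members changed in culture (3 up, 1 down), where 23.2% of the 22180 genes tested were called (12.9% up, 10.3% down). At 4 weeks 3 changed (2 up, 1 down), where 8.71% of genes were called (4.04% up, 4.67% down). At 2 weeks 1 rose and 0 fell, where 4.77% of genes were called (2.34% up, 2.43% down). Between culture and CCl4 2 members differed, Timp3 higher and Reck lower, where 21.3% of genes were called (12.6% up, 8.72% down). Between 4 and 2 weeks 0 of 5 differed by limma, and 0 had an unadjusted p under 0.05, where 0.0857% of genes were called (0.0271% up, 0.0586% down). The median change of the 5 was 0.57 in culture, 0.42 at 4 weeks and 0.36 at 2 weeks, beside 0.01, -0.00 and 0.00 over all genes. The comparisons with quiescent cells share those 2 arrays, and so are not independent of each other. The shares over all genes are also the background for the counts of markers and of other gene lists.

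**Figure D3:**
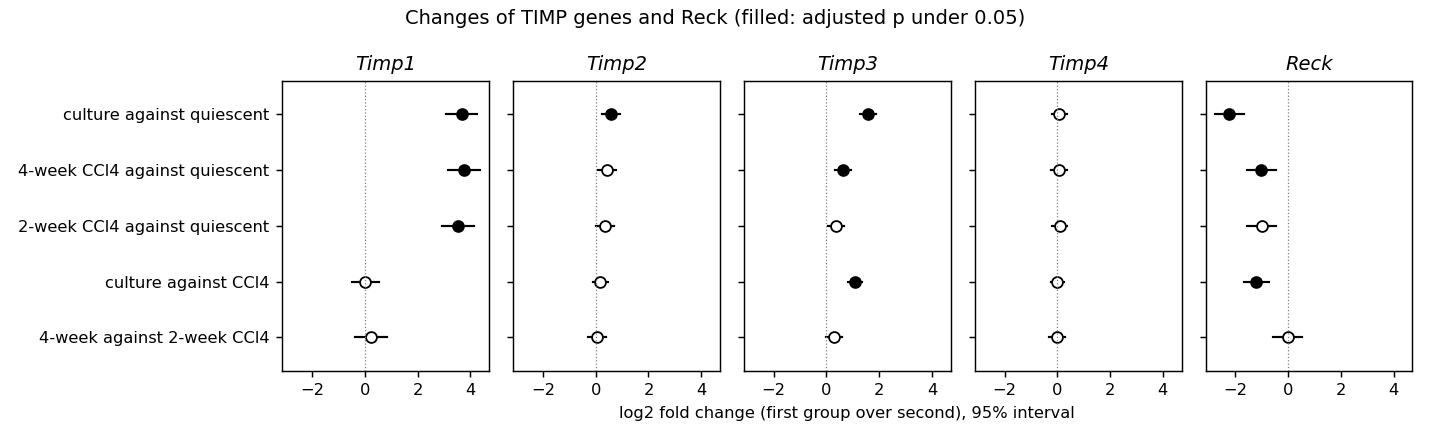
Log2 fold change (x axis, first-named group over second) of each member in the 5 comparisons (y axis); points are limma estimates, bars their 95% intervals, and filled points have an adjusted p under 0.05. The Timp1 intervals against quiescent cells lie between 2.93 and 4.35 and those of Reck in culture between -2.77 and -1.67.

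The metalloproteinases that these inhibitors block did not move as one group. Of 20 measured, 4 rose and 3 fell in culture, 6 rose and 0 fell at 4 weeks, and 6 rose and 0 fell at 2 weeks, with median changes of 0.08, 0.16 and 0.32 beside medians of 0.01, -0.00 and 0.00 over all genes. Without 2-week replicate 1 the last count was 4. Mmp2, the gelatinase held by Timp2 and Reck, read 7.12 and 6.55 in culture, 11.55 and 11.17 at 4 weeks, 11.07 and 11.51 at 2 weeks, and 9.16 and 9.43 in quiescent cells. The CCl4 arrays lay above the quiescent ones and the culture arrays below them. Mmp2 fell by 2.46 ± 0.24 in culture (adjusted p = 0.0001182) and rose by 2.07 ± 0.24 at 4 weeks (adjusted p = 0.001404) and 2.00 ± 0.24 at 2 weeks (adjusted p = 0.003044), and culture against CCl4 stood at -4.49 ± 0.21 (adjusted p = 1.973e-06). Its activator Mmp14 rose by 1.65 ± 0.14 at 4 weeks and 1.16 ± 0.14 at 2 weeks. Culture gave 0.35 ± 0.14 (adjusted p = 0.108), with a difference of -1.06 ± 0.12 between culture and CCl4 (adjusted p = 0.0002798).

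The collagenase gene Mmp13 went the other way. It read 7.0 and 7.57 in culture, 4.65 and 4.62 at 4 weeks, 4.85 and 5.09 at 2 weeks, and 4.09 and 4.46 in quiescent cells, so culture alone lay well above the background guide. It rose by 3.01 ± 0.21 in culture (adjusted p = 1.863e-05), with 0.36 ± 0.21 at 4 weeks (adjusted p = 0.413) and 0.70 ± 0.21 at 2 weeks (adjusted p = 0.117). The stromelysins Mmp10 (5.82 ± 0.31) and Mmp3 (3.03 ± 0.27) and the elastase Mmp12 (2.54 ± 0.13) were the other rises in culture. All 3 also rose at 4 weeks (2.49 ± 0.31, 2.11 ± 0.27 and 2.08 ± 0.13) and at 2 weeks (1.37 ± 0.31, 1.73 ± 0.27 and 3.34 ± 0.13), though Mmp10 lost its 2-week call in all but 1 of the 8 fits with an array left out (adjusted p 0.05768 to 0.2051) and Mmp3 lost it without 2-week replicate 1 (adjusted p = 0.0619). Mmp19 rose after CCl4, by 3.17 ± 0.17 at 4 weeks and 2.75 ± 0.17 at 2 weeks, and was 2.86 ± 0.15 lower in culture than after CCl4. Besides Mmp2, Mmp23 (-1.99 ± 0.25) and Mmp17 (-0.93 ± 0.16) fell in culture, the last pair named after their values were seen. Mmp9, the other gelatinase bound by Reck, stayed between 4.53 and 5.13 units on all arrays, close to background, and passed in no comparison (adjusted p 0.274 to 0.827).

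**Figure D4:**
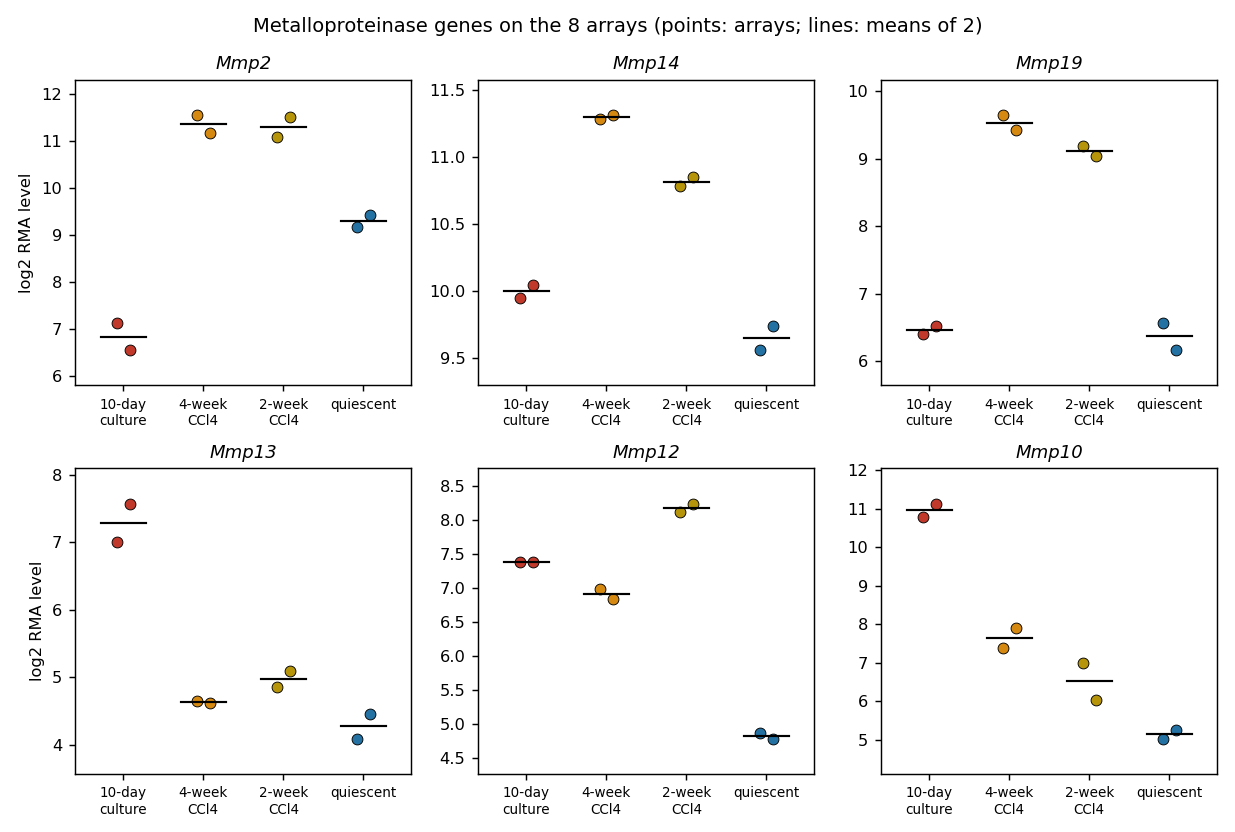
Log2 RMA level (y axis, a separate scale per gene) of 6 metalloproteinase genes in 10-day culture, 4-week CCl4, 2-week CCl4 and quiescent cells (x axis); points are arrays and lines are means of 2. Mmp2, Mmp14 and Mmp19 are highest after CCl4, Mmp13 and Mmp10 are highest in culture, and Mmp12 is high in all activated cells.

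The inhibitors and their proteases changed unequally within the arrays. The difference of log2 values between an inhibitor and a protease was taken on each array and centred on the quiescent mean, which describes a shift in their ratio and not an amount of free protease. Timp2 minus Mmp2 stood at 2.75 and 3.31 in culture, -1.81 and -1.49 at 4 weeks, -1.34 and -1.92 at 2 weeks, and -0.03 and 0.03 in quiescent cells. The shift was upward in culture and downward after CCl4, with no overlap between culture, CCl4 and quiescent arrays. Reck minus Mmp2 stood at -0.15 and 0.62 in culture, -3.35 and -2.81 at 4 weeks, -3.03 and -2.98 at 2 weeks, and -0.20 and 0.20 in quiescent cells, since in culture the pair went down together. Reck minus Mmp14 averaged -2.57 ± 0.08 in culture, -2.66 ± 0.10 at 4 weeks, -2.17 ± 0.30 at 2 weeks and 0.00 ± 0.34 in quiescent cells (SD, n = 2 each). Timp1 minus Mmp2 averaged 6.12 ± 0.49 in culture, 1.69 ± 0.25 at 4 weeks, 1.53 ± 0.63 at 2 weeks and 0.00 ± 0.79 in quiescent cells, so that Timp1 gained on Mmp2 in every activated group. For the collagenase gene Mmp13 the culture arrays overlapped the quiescent ones. Timp1 minus Mmp13 averaged 0.655 ± 0.31 in culture, 3.39 ± 0.01 at 4 weeks, 2.83 ± 0.49 at 2 weeks and 0.00 ± 0.86 in quiescent cells. Outside culture Mmp13 lay near the background guide. With 2 arrays against 2, an exact permutation test cannot go below 0.333, and no test of these ratios was made.

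**Figure D5:**
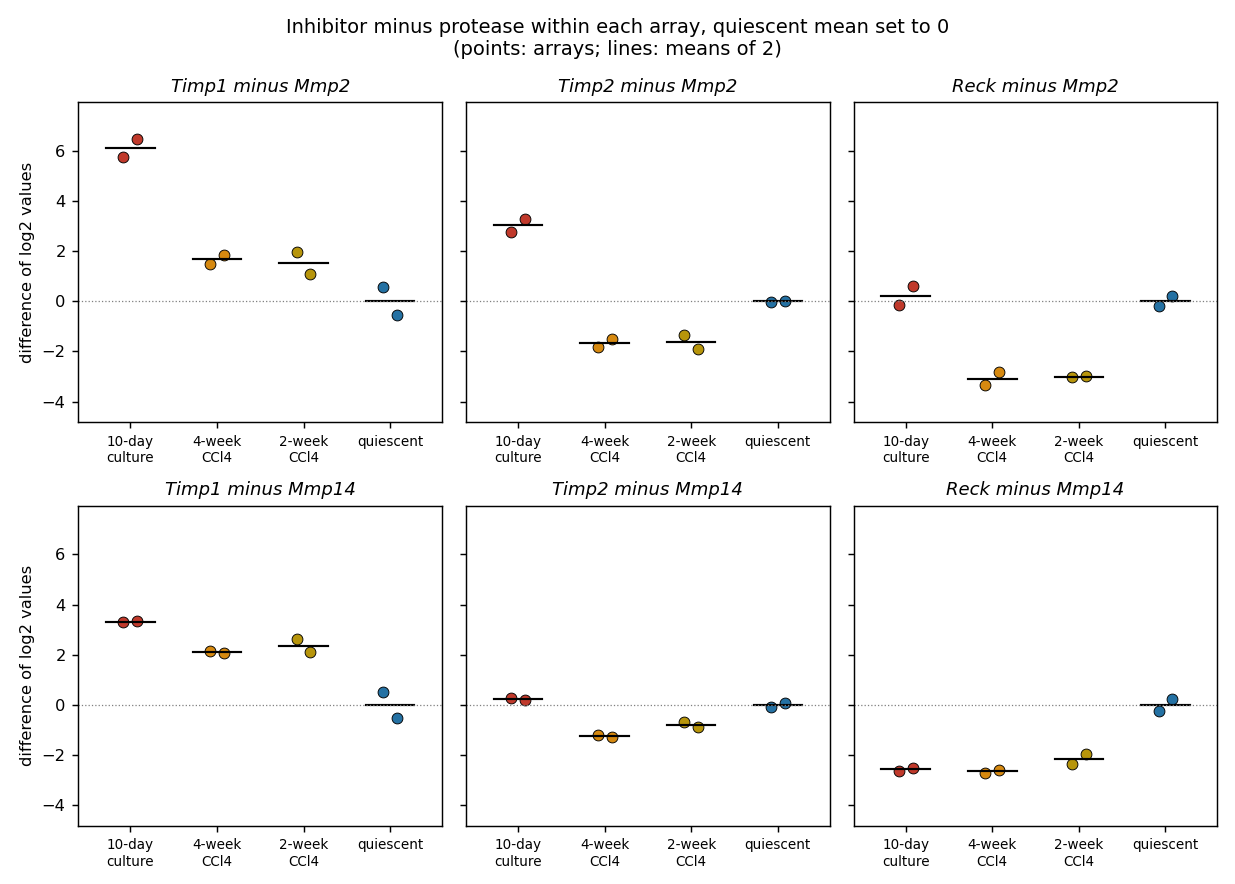
Difference between the log2 level of an inhibitor (Timp1, Timp2 or Reck) and that of Mmp2 or Mmp14 on each array (y axis, quiescent mean set to 0), in 10-day culture, 4-week CCl4, 2-week CCl4 and quiescent cells (x axis); points are arrays and lines are means of 2. Timp2 against Mmp2 averages 3.03 in culture, -1.65 at 4 weeks and -1.63 at 2 weeks, and Reck against Mmp14 lies below -1.9 on all 6 activated arrays.

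Among the ADAM and ADAMTS proteases that Timp3 blocks, 3 of 8 measured rose and 2 fell in culture, 2 rose at 4 weeks and 1 rose at 2 weeks. The shares called over all genes were 23.2% in culture, 8.71% at 4 weeks and 4.77% at 2 weeks. The aggrecanases split in culture: Adamts1 (-2.70 ± 0.19) and Adamts4 (-2.15 ± 0.29) fell while Adamts5 rose (1.23 ± 0.29, adjusted p = 0.01546). Adam10 (0.46 ± 0.13) and Adam12 (0.59 ± 0.16) were the other rises. These rises leaned on single arrays, with 0 of the 3 left without quiescent replicate 1 or culture replicate 1, and 1 left without quiescent replicate 2 or culture replicate 2. Adam12 rose after CCl4 by 1.71 ± 0.16 at 4 weeks and 1.80 ± 0.16 at 2 weeks, and Adamts4 rose at 4 weeks (1.24 ± 0.29), a call lost without quiescent replicate 2 or either 4-week array (adjusted p 0.1095 to 0.1602). Adam17, the sheddase of tumour necrosis factor, gave 0.30 ± 0.16 in culture (adjusted p = 0.246), 0.60 ± 0.16 at 4 weeks (adjusted p = 0.0554) and 0.51 ± 0.16 at 2 weeks (adjusted p = 0.137). Timp3 minus Adam17, centred in the same way, averaged 1.28 ± 0.37 in culture, 0.03 ± 0.06 at 4 weeks, -0.15 ± 0.06 at 2 weeks and 0.00 ± 0.13 in quiescent cells (SD, n = 2 each). Timp3 minus Adamts5 averaged 0.355 ± 0.38 in culture, 0.16 ± 0.15 at 4 weeks, -0.57 ± 0.28 at 2 weeks and 0.00 ± 0.73 in quiescent cells. For this pair the culture arrays overlapped the quiescent ones.

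Other protease inhibitors changed in both directions. Of 20 measured, 3 rose and 6 fell in culture, 2 rose and 3 fell at 4 weeks, and 2 rose and 2 fell at 2 weeks. Over all genes 23.2% were called in culture, 8.71% at 4 weeks and 4.77% at 2 weeks. Tfpi2, a Kunitz-type inhibitor of serine proteases, rose in culture by 3.23 ± 0.33, at 4 weeks by 1.38 ± 0.33 and at 2 weeks by 1.76 ± 0.33, with the 4-week call lost in 5 of 8 fits with an array left out, those without quiescent replicate 2 or any 1 CCl4 array (adjusted p 0.06068 to 0.1919). Serpini1, the serine protease inhibitor neuroserpin, rose at 4 weeks (1.35 ± 0.14) and at 2 weeks (0.76 ± 0.14). Wfdc1 (-4.78 ± 0.28), the complement C1 inhibitor gene Serping1 (-2.85 ± 0.17) and the alpha-macroglobulin Pzp (-6.41 ± 0.45) fell in culture, and Pzp is a hepatocyte transcript that moved with the hepatocyte markers given above. Pzp also fell at 4 weeks (-4.50, adjusted p = 0.0006965) and at 2 weeks (-2.74, adjusted p = 0.01167). Wfdc1 fell at 4 weeks (-1.42, adjusted p = 0.01647) and at 2 weeks, calls lost in 2 and 6 of the 8 fits with an array left out. The 2-week calls of Tfpi2 were lost without either 2-week array (adjusted p 0.07302 to 0.1648) and those of Serpini1 without quiescent or 2-week replicate 1 (adjusted p 0.06896 to 0.1344), and without 2-week replicate 1 this list had 0 calls at 2 weeks. Counts at 4 weeks were 1 up and 1 down without either 4-week array, and 1 up and 4 down without quiescent replicate 2.

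Partners of the TIMPs and Reck on the cell surface were mixed. Of 11 measured, 2 rose and 5 fell in culture, 0 rose and 3 fell at 4 weeks, and 0 rose and 2 fell at 2 weeks. Beside these counts, 23.2%, 8.71% and 4.77% of all genes were called. Adgra2, the receptor that works with Reck in Wnt7 signalling, stood 1.38 ± 0.16 lower in culture than after CCl4 (adjusted p = 0.0003517). Lrp1, the endocytic receptor that clears TIMPs and their complexes with proteases, fell in culture (-1.15 ± 0.15), and Igf1r rose (1.14 ± 0.18). Kdr, the endothelial VEGF receptor that Timp3 binds, fell by 4.66 ± 0.37 in culture, 2.57 ± 0.37 at 4 weeks and 1.94 ± 0.37 at 2 weeks. Kdr is itself among the sinusoidal endothelial markers. Its 2-week call was lost without replicate 1 of the quiescent or of the 2-week arrays (adjusted p 0.06529 to 0.143). Efemp1, a matrix protein that binds Timp3, fell by 3.13 ± 0.26 in culture, 1.40 ± 0.26 at 4 weeks and 1.42 ± 0.26 at 2 weeks, with the 4-week call lost without either 4-week array (adjusted p 0.07843 to 0.09465) and the 2-week call lost without quiescent replicate 2 or either 2-week array (adjusted p 0.05093 to 0.1283). Cd63, the tetraspanin that binds Timp1, passed in none of the 5 comparisons. Without 2-week replicate 1, 0 of the 11 fell at 2 weeks, and without 4-week replicate 2, 1 fell at 4 weeks.

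The ligands that induce Timp1 in other settings, cytokines of the interleukin-6 family together with Tgfb1, Il1b and Tnf, moved in different directions. Of 7 measured, 2 rose and 1 fell in culture, 3 rose and 0 fell at 4 weeks, and 2 rose and 0 fell at 2 weeks, with medians of -0.27, 0.09 and 0.93. Calls over all genes made up 23.2%, 8.71% and 4.77% in these comparisons. Il6 read 8.45 and 8.35 in culture, 7.45 and 8.46 at 4 weeks, 8.47 and 8.63 at 2 weeks, and 5.33 and 4.55 in quiescent cells. All activated arrays lay above the quiescent pair, as for Timp1, with rises of 3.46 ± 0.33 in culture, 3.02 ± 0.33 at 4 weeks and 3.61 ± 0.33 at 2 weeks. Lif rose in culture (1.5 ± 0.25) and at 4 weeks (1.42 ± 0.25), and Il11 rose at 4 weeks (1.63 ± 0.24), with both 4-week calls lost without 4-week replicate 2 (adjusted p 0.08355 and 0.05165). Il1b fell by 4.24 ± 0.33 in culture, with 4.07 and 4.17 units there, 7.21 and 8.47 at 4 weeks, 8.80 and 8.84 at 2 weeks, and 8.31 and 8.40 in quiescent cells. Macrophage markers also fell in culture, 10 of 12 with 1 rise. The median change of the 12 was -1.45. The log2 of their summed level differed less, at 11.62 to 11.77 in culture and 11.83 to 12.22 in quiescent cells. This sum is weighted to the highest marker, Lyz2, which was the 1 rise, with means of 11.02 in culture and 10.09 in quiescent cells. The sum therefore does not show that macrophage transcripts in general changed little. The part of macrophages in the Il1b values was not tested. Tnf rose at 2 weeks (1.34 ± 0.29), a call lost without either quiescent or either 2-week array (adjusted p 0.06748 to 0.1846), and Tgfb1 passed in no comparison with quiescent cells (adjusted p 0.175 to 0.669).

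Timp1, Timp3 and Timp4 lie within the spans of synapsin genes, Syn1, Syn3 and Syn2, in the RefSeq annotation, with Timp1 and Timp4 on the strand opposite to their hosts. Syn1 read 5.96 and 6.0 in culture, 5.02 and 5.45 at 4 weeks, 5.47 and 5.33 at 2 weeks, and 5.25 and 5.64 in quiescent cells. The CCl4 arrays overlapped the quiescent ones, unlike those of Timp1, and its changes were 0.53 ± 0.19 in culture (adjusted p = 0.0782), -0.21 ± 0.19 at 4 weeks and -0.05 ± 0.19 at 2 weeks. Between culture and CCl4 Syn1 differed by 0.66 ± 0.16 (adjusted p = 0.01962), a call lost in 4 of 8 fits with an array left out (adjusted p 0.05701 to 0.1198). Syn2 and Syn3 were below the background guide on all 8 arrays and passed in no comparison.

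For the 3 members whose group means spanned at least 1 log2 unit, the 5 genes with the most similar values over the 8 arrays were found by the root mean square difference of centred log2 values. For Timp1 these were Rasl11b (0.26 log2 units), the LIM-domain gene Fhl2 (0.32), the chemokine Cxcl14 (0.36), Ltbp2, which encodes a matrix protein of the latent TGF-beta binding family (0.39), and the phospholipase gene Pla1a (0.41). Fhl2 averaged 9.84 in culture, 10.14 at 4 weeks, 9.52 at 2 weeks and 6.14 in quiescent cells, a plateau over the activated groups as in Timp1. For Timp3 they were 1500009L16Rik (0.07), the glycolytic enzyme gene Pgam1 (0.08), the glucosylceramide synthase gene Ugcg (0.09), Ppp1r13l (0.09) and the spliceosome gene Snrpa1 (0.09). For Reck they were Pald1 (0.16), Ncoa7 (0.19), the ubiquitin ligase gene Rnf167 (0.19), the aspartyl protease gene Bace2 (0.19) and the exchange factor gene Dock6 (0.20). Pald1 averaged 5.20 in culture, 6.20 at 4 weeks, 6.19 at 2 weeks and 7.04 in quiescent cells. The 8 arrays form 4 groups of shared condition, so likeness over them is a description only.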

How the data were processed

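RNA was amplified before labelling, per the labels' protocols, and the authors deposited log2 values for each probe set. The submitters' processing notes name RMA and Affymetrix Expression Console, whose versions, like the genome build, are not given in the sources used here. The method forces the arrays onto a shared distribution and hides shifts common to nearly all genes. Array medians ran from 4.63 to 4.72. The values were used as deposited. The platform annotation gave 1 symbol to 23521 of 41345 probe sets, several to 1814, and 16010 were not named here; the probe set with the highest mean stood for a gene, which left 22180. All 8 arrays were fitted together with limma 3.58.1 in R 4.3.3 (lmFit and eBayes, 4 groups, 4 residual and 4.75 prior degrees of freedom), with 5 contrasts, two-sided, called at an adjusted p under 0.05. The number of arrays limits the precision. The fit was tested on simulated data.

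The members, gene lists and inhibitor and protease pairs were chosen with earlier results of these data known. Named genes were the members, from each list those called genes that ranked first by p (up to 4 in culture against quiescent cells, up to 3 elsewhere), the genes closest in pattern to a member, the synapsin genes and 7 proteases best known as targets; others named are members of a count or of a called group, chosen after their values were seen. Protein features were planned and not analysed here. The replicate numbers did not pair the samples. Alternatives were the mean of probe sets, all probe sets, trended or robust eBayes, a filter on dim genes, median centring, quantile normalization, fits of the compared groups alone, a replicate block and leaving out each array.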

Additional observations from a re-analysis of the deposited data

Results flagged for a closer look

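Mmp12, the macrophage elastase gene, was the named gene whose change after CCl4 differed between the time points by a test of the difference itself. It read 6.98 and 6.84 at 4 weeks and 8.11 and 8.23 at 2 weeks, a difference of -1.26 ± 0.13 (limma, adjusted p = 0.03213), against 4.87 and 4.79 in quiescent cells. The call was lost in 6 of the 8 fits that left out 1 array, all but those without a quiescent array (adjusted p 0.07084 to 0.335). Macrophage markers moved the same way between these times, with 4 of 12 lower and 0 higher at 4 than at 2 weeks. The log2 of their summed level was 11.06 to 11.12 at 4 weeks and 12.14 to 12.45 at 2 weeks. In culture this sum stood at 11.62 to 11.77 and in quiescent cells at 11.83 to 12.22, with Lyz2 the highest marker of the list. Mmp12 read 7.37 and 7.38 in culture, above its quiescent level, as it was at 4 weeks. The part of macrophages in the Mmp12 values was not tested.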

How the results depend on the processing

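No called change of a member reversed its direction under any alternative run. Leaving out 1 array in turn, the members called numbered 3 to 4 in culture against quiescent cells, 1 to 3 at 4 weeks, 1 to 2 at 2 weeks, 2 in culture against CCl4 and 0 at 4 against 2 weeks. The genes called ran from 3505 to 4962 in culture, 652 to 2113 at 4 weeks, 260 to 1430 at 2 weeks, 2846 to 5225 in culture against CCl4 and 0 to 85 at 4 against 2 weeks. At 2 weeks Reck also passed, giving 2 members in place of 1, with a trended eBayes (adjusted p = 0.04362), with dim genes filtered out (0.03963) and with arrays centred on their medians (0.04075). The replicate numbers correlated at -0.042 to 0.0737 over genes and share only a number; with the replicate block 2 members were called at 2 weeks (Reck adjusted p = 0.02011) and 9 genes in place of 19 at 4 against 2 weeks. With only the arrays of the groups compared, which leaves fewer samples for the spread, 1 member in place of 3 was called at 4 weeks, with 1205 genes in place of 1932 there, 372 in place of 1058 at 2 weeks and 82 at 4 against 2 weeks. With all 41345 probe sets tested, 1 member was called at 4 weeks, 441 probe sets at 2 weeks and 0 at 4 against 2 weeks. For the other moves the cause was not tested. With 2 arrays a group, changes the size of those of Timp2 lie at the limit of what these data can call, and Timp4 lies in the background.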

Other observations

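Of 8 measured substrates of the sheddases that Timp3 blocks, 1 rose and 4 fell in culture, 0 rose and 1 fell at 4 weeks, and 1 rose and 1 fell at 2 weeks, with median changes of -1.01, -0.22 and -0.36. Over all genes the shares called were 23.2%, 8.71% and 4.77%, so the 4-week count lay near the share over all genes. The receptors of tumour necrosis factor, Tnfrsf1a (-1.35 ± 0.17) and Tnfrsf1b (-1.73 ± 0.20), the interleukin-6 receptor gene Il6ra (-1.11 ± 0.23) and Notch1 (-1.97 ± 0.13) fell in culture by limma. In the same comparison 10 of 12 macrophage, 12 of 12 sinusoidal endothelial and 12 of 12 hepatocyte markers fell, and their part in these values was not tested. Hbegf, which encodes a ligand of the epidermal growth factor receptor, rose there (1.27 ± 0.30, adjusted p = 0.01426), and the count of rises was 0 without quiescent replicate 2 or culture replicate 2. Notch1 also fell at 4 weeks (-0.61 ± 0.13) and at 2 weeks (-0.94 ± 0.13), with the 4-week call lost without either quiescent or either 4-week array (adjusted p 0.05956 to 0.1569) and the 2-week call lost without 2-week replicate 1 (adjusted p = 0.06107). Against CCl4, culture was lower for 5 of the 8 and higher for Hbegf (1.74 ± 0.26, adjusted p = 0.001511).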
